A study of Mus musculus with 34 samples.

Results

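Trh, the mouse gene for the precursor of thyrotropin-releasing hormone, was read by 1 probe set of the 45265 probe sets on the paired Affymetrix arrays MOE430A and MOE430B. It is 1 of 18194 genes named on these arrays by a probe set with a single symbol, and it was found as every probe set whose only symbol in the platform annotation was Trh. That probe set lay among the 22690 of MOE430A, and the 22575 of MOE430B held none. The gene was chosen by its log2 signal over the 6 groups of line and state, so its own differences are given below as a description with standard errors and without a test.

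Thyrotropin-releasing hormone is a small amidated peptide that hypothalamic neurons release to make the pituitary secrete thyrotropin and prolactin. The precursor holds several copies of the hormone sequence, which convertases cut out, carboxypeptidases trim and further enzymes cyclise and amidate. The peptide acts on receptors coupled to Gq and phospholipase C, and a peptidase on the cell surface destroys it. In the hypothalamus, thyroid hormone lowers and CREB and STAT3 signalling raise transcription of the gene.

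The samples were total RNA from C2 and D4, which are C57BL/6 embryonic stem (ES) cell lines derived from blastocysts, each represented by 1 line. Each line had an early-passage state, grown in DMEM with 15% fetal bovine serum, and a late-passage state, grown in a medium named Thromb-XTX-WES, which the labels divide into attached and detached cells. All cultures received LIF, with glutamine, beta-mercaptoethanol, sodium pyruvate and non-essential amino acids, at 5% CO2 and 37 C. Late-passage cells are labelled as giving high chimerism and the germ line, and early-passage cells as giving low chimerism, so passage, medium and chimerism cannot be told apart. All cells shared embryonic fibroblast feeders, which are named as the contaminating cells; the estimated purity was near or above 90%. There were 3 RNAs per line and state, but 2 for detached D4 (replicates 1 and 3), which made 17 RNAs, 11 late and 6 early. The surface meant by attached and detached is not stated, nor is it stated that replicate RNAs are separate cultures. P-values for other genes therefore cover only the scatter among the RNAs, which may be technical.

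Values are MAS5 signals, a linear brightness per probe set with no count or depth behind it, and were analysed as log2(signal + 16). Array medians ranged from 529 to 817 for MOE430A and from 763 to 989 for MOE430B. On MOE430A, attached C2 replicate 1 stood apart in its dimmest probe sets, with a 5th percentile of 109 against at most 37.6 on the others. Attached D4 replicate 3 stood apart in RNA quality, with an Actb 3'/5' signal ratio of 1.84 against at most 1.21. It was also the only MOE430A array logged under a protocol other than the usual one. Without both arrays, the late minus early difference of Trh was 1.90 (SE 0.254). The ES cell label was borne out by its markers: the mean log2 signal of Pou5f1, Sox2 and Nanog, the core pluripotency factors, lay between 12.96 and 13.58 in the 6 groups. In bulk RNA, fewer cells of a type and less RNA per cell cannot be told apart.

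Trh lies on the minus strand of chromosome 6, from 92242061 to 92244650 in GRCm38.p6. The 250 bases before its annotated start, chr6:92244651-92244900 on the minus strand, are shown because the level of the transcript is the measurement and this is where its core promoter lies. The sequence is RefSeq's, and capitals mark the letters TGACCTCA and TATAA.

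Trh promoter: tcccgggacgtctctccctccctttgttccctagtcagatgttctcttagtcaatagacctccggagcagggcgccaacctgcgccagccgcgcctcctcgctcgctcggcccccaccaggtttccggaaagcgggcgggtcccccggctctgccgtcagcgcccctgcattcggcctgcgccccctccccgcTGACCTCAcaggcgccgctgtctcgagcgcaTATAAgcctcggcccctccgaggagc

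The motifs were chosen after this sequence was read, and both strands of 32851 promoter windows of the same length were searched. TGACCTCA, a variant of the CREB element, begins at position -57; on the other strand it holds AGGTCA, the core element of thyroid hormone receptors. TGACCTCA was present in 1.94% of all windows and AGGTCA in 14.0%. TATAA, the core of a TATA box, begins at -26 and was present in 22.8% of windows. The full CREB palindrome TGACGTCA (1.55% of windows), the STAT motif TTCNNNGAA (7.02%) and the octamer ATTTGCAT (1.60%) were not found in the Trh window. These are letter matches only, and no measurement in the series bears on whether a factor binds them.

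Trh was higher in every late-passage RNA of both lines than in any early-passage RNA. In early C2 cells the signal was 1166, 1366 and 1821 in replicates 1 to 3. In early D4 cells it was 896, 760 and 2297, so replicate 3 stood above the other early RNAs of either line. Attached C2 cells gave 4327, 4479 and 3718. Every attached C2 RNA was thus above the brightest early RNA, and the attached C2 replicates lay close together. Attached D4 cells gave 3444, 6162 and 6329, of which replicate 1 was the lowest late RNA. Detached C2 cells gave 5569, 5855 and 6024, and detached D4 cells gave 3677 and 7098. The D4 late groups were spread widely, while the detached C2 RNAs were the most alike of any group.

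**Figure D1:**
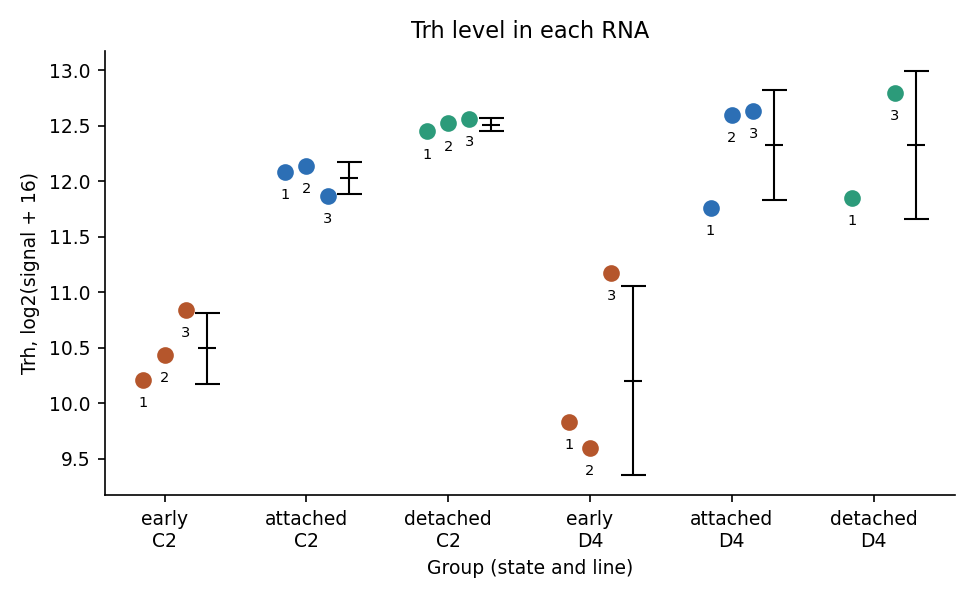
Trh level as log2(signal + 16) in each of 17 RNAs, by state and line. Numbered points are replicates and the bars beside them are the group mean ± SD; the late-passage RNAs lie between 11.76 and 12.80 and the early-passage RNAs between 9.60 and 11.18.

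Over the 11 late RNAs the lowest, median and highest signals were 3444, 5569 and 7098, and over the 6 early RNAs they were 760, 1266 and 2297. The sets did not overlap, and the gap between them lay between early D4 replicate 3 and attached D4 replicate 1. On the log2 scale the group means were 12.51 ± 0.06 (SD, n = 3) in detached C2, 12.33 ± 0.49 (n = 3) in attached D4 and 12.32 ± 0.67 (n = 2) in detached D4. They were 12.03 ± 0.14 (n = 3) in attached C2, 10.49 ± 0.32 (n = 3) in early C2 and 10.20 ± 0.85 (n = 3) in early D4. In this order, the only step between neighbours beyond the spread was the one from attached C2 to early C2, a gap of 1.53 with ranges that did not overlap. The steps among the 4 late groups, of 0.18, 0.003 and 0.30, and the step of 0.29 between the early groups were smaller than the larger SD of the neighbours, and their ranges overlapped.

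The late minus early difference, with attached and detached weighted equally and both lines averaged, was 1.95 (SE 0.233) on the log2 scale, or 3.86-fold. It was the 5th highest of the 14160 probe sets tested on MOE430A, where the median over both array types was -0.03. Attached minus early was 1.83 (SE 0.264) and detached minus early was 2.07 (SE 0.280), comparisons that share the early RNAs. The change was thus present in both kinds of late cells. By line, late minus early was 1.77 (SE 0.323) in C2 and 2.12 (SE 0.337) in D4. The D4 change exceeded the C2 change by 0.35 with a standard error of 0.467, and the 95% interval of that excess ran from -0.68 to 1.38.

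Between detached and attached cells the difference was 0.24 (SE 0.280, 95% interval -0.38 to 0.86). In C2 it was 0.48 (SE 0.373), and the 3 detached RNAs lay above the 3 attached ones. In D4 it was -0.004 (SE 0.418) and the ranges overlapped. D4 minus C2, averaged over the states, was -0.06 (SE 0.224, 95% interval -0.55 to 0.43), with -0.29 in early, 0.30 in attached and -0.19 in detached cells. Each of these line differences was smaller than the larger SD of its groups.

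Other quantities moved with passage beside Trh. The mean log2 signal of 22 feeder fibroblast genes was 11.43 to 12.33 in the early RNAs and 9.35 to 11.43 in the late ones. The list had 26 genes, of which 4 (Lum, Pdgfrb, Twist1 and Prrx1) did not pass the filter. The summed signal of the 22 was 91226 to 259644 in early and 41412 to 100411 in late RNAs, so the ranges overlapped. In late minus early, 14 of the 22 fell and 0 rose (limma, adjusted p under 0.05), where 1.14% of all 30373 tested probe sets fell and 0.448% rose. Col1a1, a fibrillar collagen, fell by 4.21 (SE 0.411, limma adjusted p = 0.000214). Detached cells were lower than attached cells in 9 of the 22, and 0 were higher, beside 0.198% and 0.0198% of all probe sets. Attached C2 and detached C2 thus differed in the feeder mean (11.28 ± 0.21 against 9.88 ± 0.43, SD, n = 3 each) by more than in Trh.

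With the feeder mean as a covariate, the late minus early difference of Trh was 2.49 (SE 0.644) and detached minus attached was 0.75 (SE 0.632). The covariate moved with state, and in this fit 0 of 30373 probe sets were called in late minus early (1502 at an unadjusted p under 0.05); the part of feeder RNA in the Trh difference was not tested. Relative to the mean of Pou5f1, Sox2 and Nanog on the same array, Trh was -1.89 to -0.47 in late and -3.91 to -2.04 in early RNAs. The sets did not overlap on this scale either, on which only differences between RNAs carry meaning.

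The 17 MOE430A arrays fell into 5 fluidics runs, inferred from the station and hybridization time logged with each array. Within run 2, detached C2 exceeded early C2 by 2.22 (2 RNAs against 2). Within run 4, detached D4 exceeded early D4 by 2.61 (2 against 2). In both runs the ranges did not overlap. Neither comparison held the highest early RNA of its line. Early C2 replicate 3 (10.84) was in run 3, and early D4 replicate 3 (11.18) was the only array of run 5. Over all RNAs, detached minus early was 2.01 (SE 0.373) in C2 and 2.12 (SE 0.418) in D4. Within run 1, 1 detached C2 RNA lay 0.42 above the mean of 3 attached C2 RNAs. In run 3 the attached D4 RNAs lay 1.48 above early C2 replicate 3, a comparison that crosses the lines. Attached and early cells of 1 line never shared a run, so run and state cannot be told apart for attached minus early within a line. All MOE430A arrays, which read Trh, were of lot 1. On MOE430B, lot 2 comprised early C2 replicate 2 and all early D4 arrays, and the remaining arrays were of lot 1. For genes read on MOE430B, lot and passage therefore cannot be told apart in D4. In C2, early replicates 1 and 3 shared lot 1 with the late arrays.

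**Figure D2:**
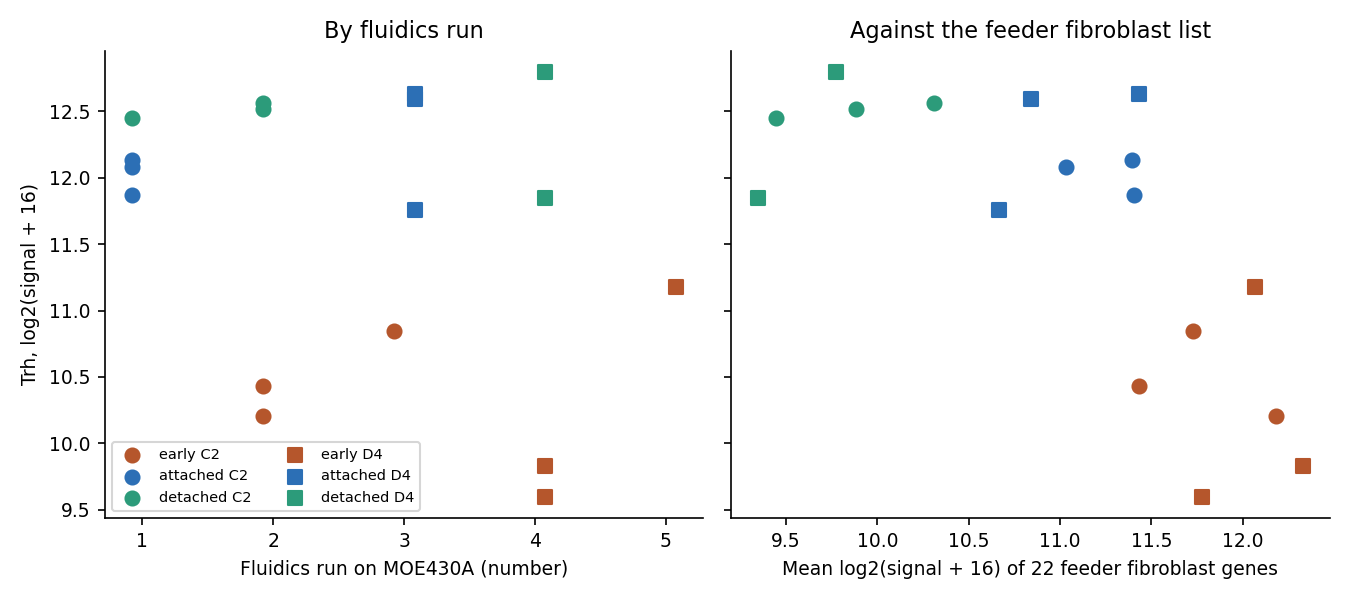
Trh as log2(signal + 16) in each of 17 RNAs against its fluidics run (left, circles and squares set slightly apart) and against the mean log2(signal + 16) of 22 feeder fibroblast genes (right). Within runs 2 and 4 the mean of the detached RNAs lies 2.22 and 2.61 above that of the early ones. The highest early RNA of each line lies in another run, 3 for C2 and 5 for D4. The feeder mean is 11.43 to 12.33 in early and 9.35 to 11.43 in late RNAs, and its part in the Trh difference was not tested.

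No gene for making the hormone from its precursor was called higher. Of 11 listed, 10 had a probe set and 7 passed the filter on low signal. In late minus early 0 rose and 1 fell, beside 0.448% and 1.14% of all 30373 tested probe sets. All 7 differences were below 0, where 14207 of the 30373 probe sets lay above 0. The median was -0.29 beside -0.03 over all tested probe sets. Cpe, the carboxypeptidase that trims basic residues from cut peptides, was the one that fell. Its signal was 1020, 485 and 929 in early C2 and 1817, 827 and 1365 in early D4. In attached cells it was 189, 537 and 599 in C2 and 496, 737 and 531 in D4. In detached cells it was 258, 236 and 300 in C2 and 262 and 255 in D4. The group means were lowest in detached cells, but the lowest single RNA was attached C2 replicate 1. Of the 11 late RNAs, 6 lay below every early RNA.

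Cpe differed by -1.44 between late and early (SE 0.249, limma adjusted p = 0.00664). Detached minus early was -1.86 (SE 0.299, limma adjusted p = 0.00267), whereas attached minus early was -1.02 (SE 0.282, limma adjusted p = 0.168), in a comparison with 0.0560% of probe sets called lower and 0.0362% higher. Late minus early was -1.67 in D4 (limma adjusted p = 0.0421) and -1.22 in C2 (limma adjusted p = 0.176), with a difference between the lines of -0.45 (SE 0.498, limma adjusted p = 0.813); that test called 0.00329% of probe sets lower and 0.00% higher. The D4 call was lost in 10 of the 17 fits that left out 1 RNA. The calls in this D4 comparison covered 0.372% of probe sets downward and 0.158% upward. Its other probe set gave 0.01 (limma adjusted p = 0.995), so the probe sets disagreed. With the feeder mean as a covariate the difference was -0.20 (limma adjusted p = 0.997), in the fit that called no probe set at all.

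The other processing genes gave smaller values that did not pass. Pcsk1n, a secreted inhibitor of prohormone convertase 1, differed by -0.69 (SE 0.242, limma adjusted p = 0.139). Furin and Pcsk5, convertases of the general secretory pathway, differed by -0.35 and -0.28 (limma adjusted p = 0.346 and 0.449). Pam, which makes the C-terminal amide, differed by -0.29 (limma adjusted p = 0.512), and Qpctl, a Golgi glutaminyl cyclase, by -0.27 (limma adjusted p = 0.667). Cpd, a further carboxypeptidase, differed by -0.05 (limma adjusted p = 0.951) on its brightest probe set, and by -0.49 and -0.45 on 2 others (limma adjusted p = 0.0553 and 0.382). Pcsk1, the main neuroendocrine convertase, Scg5 and Qpct, the secreted glutaminyl cyclase, were below the filter, and Pcsk2 had no probe set with a single symbol.

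Neither receptor passed the filter on low signal. Trhr and Trhr2, the receptors, and Trhde, the peptidase that destroys the hormone outside cells, were each above the array median on at most 1 array. Of 14 genes for receptors, signalling and degradation, 10 were tested and 0 passed in either direction in late minus early. Over all 30373 tested probe sets, 1.14% were called lower and 0.448% higher in that comparison. Of the 10 genes, 2 had an unadjusted p under 0.05, beside 4224 of the 30373 probe sets, and the median was -0.17. Plcb4, a phospholipase C read on MOE430B, gave 0.61 (SE 0.256, limma adjusted p = 0.439). Gnaq, the alpha subunit of Gq, gave -0.56 (SE 0.347, limma adjusted p = 0.420). Itpr2, a calcium channel of the endoplasmic reticulum opened by IP3, gave -0.38 (SE 0.136, limma adjusted p = 0.152). In detached minus early alone Itpr2 fell by 0.77 (SE 0.163, limma adjusted p = 0.0166), in a comparison that called 1.59% of probe sets lower and 0.635% higher. Its mean log2 signal was 9.04 in detached C2 and 8.97 in detached D4, against 9.69 to 9.89 in the other groups. Gna11, Plcb1, Plcb3, Itpr3, Prkca, Pgpep1 and Prep lay between -0.27 and 0.10, and Itpr1 had no probe set.

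Of 16 listed regulators of Trh transcription, 14 were tested, 2 were not analysed here and 0 passed in late minus early. Over all 30373 tested probe sets, 0.448% were called higher and 1.14% lower. Of the 14, 2 had an unadjusted p under 0.05, beside 4224 of the 30373 probe sets, and the median was 0.06. Thra and Thrb, the thyroid hormone receptors, differed by -0.10 and -0.37 (limma adjusted p = 0.845 and 0.406). Creb1 and its coactivator Crebbp, both read on MOE430B, differed by 0.49 and 0.40 (limma adjusted p = 0.460 and 0.418). For both, as for Plcb4, the D4 part of the difference cannot be separated from array lot. Stat3, the transcription factor that LIF signalling activates, differed by 0.21 (limma adjusted p = 0.410), with group means of 11.56 to 11.95; its 3 other tested probe sets gave -0.47 to 0.69. Sim1 and Arnt2, which together specify hypothalamic TRH neurons in mice, differed by -0.09 and -0.13 (limma adjusted p = 0.862 and 0.896). Rxra, Rxrb, Ncoa1, Nr3c1, Klf10, Sp1 and Pou3f2 lay between -0.23 and 0.21. The RNA level of these regulators thus gave no call, which says nothing of their activity.

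**Figure D3:**
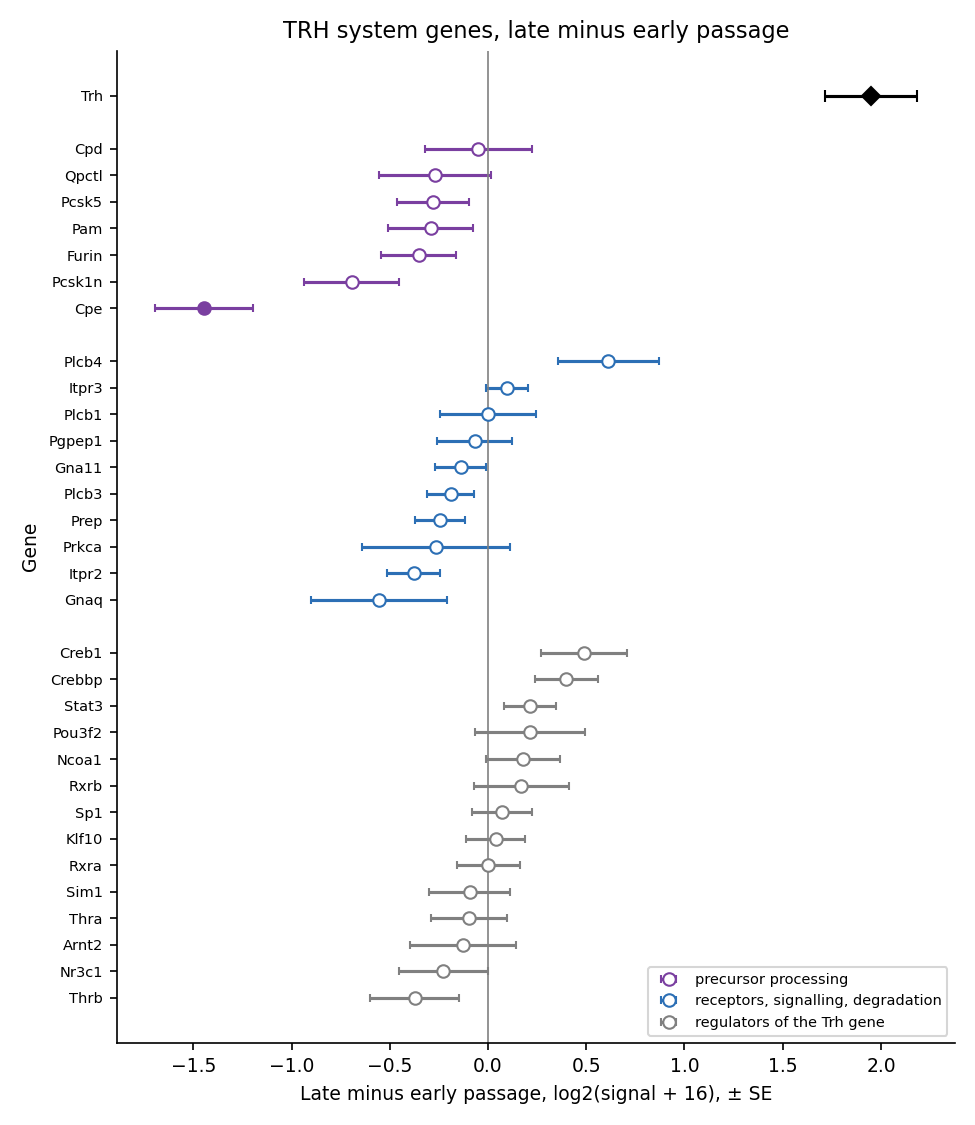
Late minus early difference in log2(signal + 16), with bars of ± SE, for Trh (diamond, chosen for its levels) and the 31 tested genes of the lists for precursor processing, receptors and signalling, and regulators. A filled point has a limma adjusted p under 0.05; only Cpe, at -1.44, is filled, and every other listed gene lies between -0.69 and 0.61.

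Of the 31 genes, 19 had 33 other tested probe sets in all, which gave 0 calls in late minus early and values from -0.81 to 1.31. Over the 31 together, detached minus attached called 0, beside 0.198% of all 30373 probe sets called lower and 0.0198% higher. Of the 31, 9 had an unadjusted p under 0.05, beside 3138 of the 30373. Itpr2 was nearest to a call, at -0.79 (limma adjusted p = 0.0525). D4 minus C2 called 0, and 0.00% of all probe sets were called in either direction. There 1 of the 31 had an unadjusted p under 0.05, beside 1989 of the 30373. In C2 alone late minus early called 0, beside 0.0198% of all probe sets called higher and 0.0165% lower. There 3 of the 31 had an unadjusted p under 0.05, beside 2426 of the 30373.

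No member of the wider thyroid or neuropeptide lists passed in late minus early. Over all 30373 tested probe sets, 0.448% were called higher and 1.14% lower, and 4224 had an unadjusted p under 0.05. Of 18 genes of the thyroid hormone axis, 8 were tested and 0 passed (2 at an unadjusted p under 0.05), with a median of -0.29 and Tshb, Cga and Tg below the filter. Of 42 other neuropeptide and peptide hormone genes, 21 were below the filter and 16 were tested. 0 of the 16 passed (5 at an unadjusted p under 0.05), and the median was -0.03. Npy gave 0.84 (limma adjusted p = 0.164) and Vgf, a secreted granule protein, -1.60 (limma adjusted p = 0.373). Markers of neurons and hypothalamus were tested for 11 of 16 genes with 0 calls (1 at an unadjusted p under 0.05). The summed signal of the 9 read on MOE430A was 12667 to 16288 in late and 13098 to 20730 in early RNAs. Otp, Tubb3 and Sim1 passed the filter, while Snap25 and Slc17a6, which neurons need for transmitter release and glutamate loading, did not. Of 12 islet genes, 1 was tested, Neurod1 at -0.005, and Ins2, Gcg, Sst and Pdx1 were below the filter.

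Some genes of the ES cell state rose beside Trh. Of 20 naive pluripotency genes, 3 rose and 0 fell in late minus early, with a median of 0.42. Over all 30373 tested probe sets, 0.448% were called higher and 1.14% lower in that comparison. Socs3, a feedback inhibitor of LIF and STAT3 signalling, rose by 1.30 (SE 0.161, limma adjusted p = 0.000688). Its other tested probe sets rose by less, 0.65 and 0.64 (limma adjusted p = 0.0377 and 0.0119). Gbx2 rose by 1.85 (limma adjusted p = 0.0167) and Klf5 by 0.55 (limma adjusted p = 0.0320); both are transcription factors that support self-renewal. Of 7 core genes 1 rose, Sox2 by 0.71 (limma adjusted p = 0.0269), while Pou5f1 gave 0.29 (limma adjusted p = 0.315) and Nanog -0.20 (limma adjusted p = 0.650). Klf5 rested on 1 of 3 tested probe sets, the others giving 0.06 and -0.17 (limma adjusted p = 0.890 and 0.915). The calls of Klf5 and Sox2 were lost without the filter on low signal (limma adjusted p = 0.0823 and 0.0687). Of 15 extraembryonic endoderm genes, 12 were tested, 5 rose and 0 fell, with a median of 0.50. These were Srgn, a granule proteoglycan (3.35), Cubn, an endocytic receptor (2.83), Dab2, its adaptor (1.16, but 0.10 on its other tested probe set, limma adjusted p = 0.843), Lama1, a laminin chain (1.11), and Amn, the partner of Cubn (0.75, lost without the filter at a limma adjusted p = 0.0565). Afp, Apoa1 and Pth1r of that list were below the filter. Of the 12 tested, 11 differences were above 0, and the lowest was -0.80. Gata4, Gata6 and Sox17, markers of that cell type, were tested and not called on their brightest probe sets. Other probe sets of Gata6 gave 1.09 (limma adjusted p = 0.0173) and -0.36 (limma adjusted p = 0.795). The summed signal of the 11 tested genes read on MOE430A was 10308 to 17796 in late and 4815 to 7963 in early RNAs. Its part in the Trh result was not tested. With the feeder mean as a covariate all of these pluripotency and endoderm calls were lost: Socs3 gave 1.20 and Cubn 3.61 (limma adjusted p = 0.954 and 0.772), and Gbx2 gave 1.05 and Sox2 0.37 (limma adjusted p = 0.983 and 0.986).

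The genes with the pattern most like Trh were found by Pearson r over the 17 RNAs. The search covered 13010 probe sets of MOE430A with 1 symbol that passed the filter on low signal. Each gene was taken once, at its probe set with the most extreme r. This is a description: the RNAs share arrays, groups and scaling. A gene that differs between late and early tends to a larger r, positive where it rises and negative where it falls. The median r was -0.02, and 5% to 95% of probe sets lay between -0.56 and 0.55. Socs3 came first, at r = 0.92. Its signal was 2841 to 3563 in early C2 and 1673, 2157 and 3208 in early D4. In late cells it was 4614 at the lowest, in attached D4 replicate 1, and 9040 at the highest, in detached D4 replicate 3. The lowest and highest late RNAs and the highest early D4 replicate were thus the same for Socs3 as for Trh. Other RNAs differed in place. Detached D4 replicate 1 was low among the late RNAs for Trh (3677) but high for Socs3 (7887). The highest early RNA was early D4 replicate 3 for Trh but early C2 replicate 3 for Socs3. Within groups, on deviations from the group means, r between Socs3 and Trh was 0.69.

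Cubn followed at r = 0.90, on another probe set than the one above. Its signal was 40.6 to 365 in early and 987 to 2253 in late RNAs, a late minus early difference of 3.81. Within groups its r was 0.30. Values within groups were low also for Snhg5, a host gene of small nucleolar RNAs (r = 0.89, within groups 0.15), and Srgn (0.85 and 0.26). Npl, a sialic acid lyase, had r = 0.89, Hmces, which shields abasic sites in DNA, 0.87, and Ntn1, the guidance cue netrin-1, 0.87. Smyd5, a SET-domain methyltransferase, and Mrnip, a DNA repair factor, had r = 0.85 each, and 0.69 and 0.83 within groups. Stard7, a lipid transfer protein, closed the 10 at 0.83.

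The opposite pattern was strongest in Man2a1, a Golgi mannosidase, at r = -0.88. Hacd2, of fatty acid elongation, and Pdlim1, an actin-associated LIM protein, had r = -0.86. Ccng1, the p53 target cyclin G1, and Plk2, a polo-like kinase, had r = -0.85. Among these 5, Plk2 had the largest late minus early difference, at -1.73, and Hacd2 the smallest, at -0.28. The set of look-alike genes depended on the measure: Spearman's rho kept 4 of the 10, the 6 group means kept 1 (Cubn) and the deviations within groups kept 1 (Mrnip). Without early D4 replicate 2, the lowest Trh value, 4 of the 10 were kept (Socs3, Snhg5, Cubn and Ntn1).

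**Figure D4:**
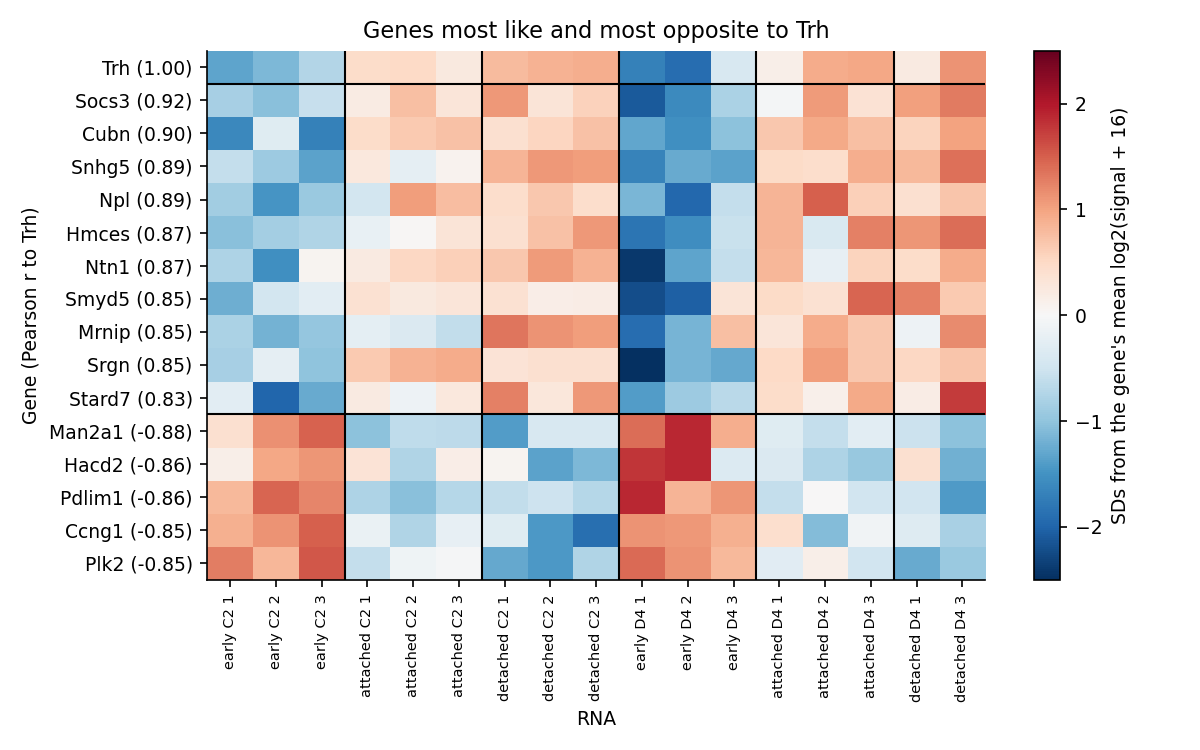
Level of Trh, the 10 genes most like it and the 5 most opposite in each of 17 RNAs, as SDs from the gene's own mean log2(signal + 16); Pearson r to Trh stands beside each name. The 6 early-passage columns are mostly low in the upper rows and mostly high in the lower rows, from r = 0.92 for Socs3 to r = -0.88 for Man2a1. Single cells depart from this: the highest early RNA of Mrnip, at 9.09, lies above its late median of 9.04.

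No gene beside Trh on chromosome 6 passed. Of the 4 nearest protein-coding genes on each side, all 8 were tested and 0 were called in late minus early. Over all 30373 tested probe sets 0.448% were called higher and 1.14% lower, so 0 of 8 is close to that share. Rbsn, an endosomal trafficking protein 27.2 kb away, gave 0.06, and Prickle2, a planar polarity protein 126 kb away on the other side, gave 0.17. Mrps25, a mitochondrial ribosomal protein, gave 0.29 (limma adjusted p = 0.224) and was the highest. Nr2c2, Fgd5, Adamts9, Magi1 and Slc25a26 lay between -0.18 and 0.15.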

How the data were processed

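The authors deposited 1 linear signal intensity per probe set and array, which the submitters' processing notes credit to MAS5, over 34 arrays, 17 of each type. The MAS5 version was not given in the sources used here, and the deposited intensity of an array is scaled to a trimmed mean of 1500.1 to 1500.6. No further scaling was applied. Values were taken as log2(signal + 16), which understates changes of dim probe sets, and probe sets brighter than the array median on 2 or more of 17 arrays were tested (14160 on MOE430A, 16213 on MOE430B).

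Each array type had its own limma fit (version 3.58.1, R 4.3.3) with a coefficient for each of the 6 groups. Benjamini-Hochberg adjustment ran over all probe sets of an array type, and a call is an adjusted p under 0.05. The test was checked on simulated data. Symbols came from the platform annotation (20393 and 14674 probe sets with 1 symbol) and were updated from the RefSeq gene table of GRCm38.p6 for 20364 and 14499 probe sets. Each gene is given by its brightest tested probe set, with MOE430A taken first.

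The text names the Trh probe set, the 10 most and 5 least like it by Pearson r, members of 11 lists, the 4 nearest genes on each side of Trh and 8 fixed genes. The members and lists were chosen with earlier results of these data known. Alternatives were other pseudocounts, filters and normalization, batch and replicate blocks, array weights, a feeder covariate, attached or detached cells alone and leaving out each RNA. The number of arrays limits the precision.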

Additional observations from a re-analysis of the deposited data

Results flagged for a closer look

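The late minus early difference of Scnn1a, an epithelial sodium channel subunit and one of the fixed genes, differed between the lines. It was 2.18 (SE 0.243) in C2 and -1.06 (SE 0.253) in D4, so D4 minus C2 was -3.24 (SE 0.351, limma adjusted p = 0.00317). The group means were 7.45 in early C2, 9.82 and 9.43 in attached and detached C2, 9.52 in early D4 and 8.45 and 8.46 in attached and detached D4. For Trh the same difference between the lines was 0.35 (SE 0.467).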

How the results depend on the processing

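The late minus early difference of Trh stayed above 0 under every alternative run, from 1.68 to 2.49; the feeder covariate moved it to 2.49 and detached minus attached to 0.75. That covariate, applied to the lists after seeing the data, ended every late minus early call, leaving 0 in the TRH system, 0 in its D4 comparison and 0 each in the naive pluripotency, endoderm and feeder lists; Pam turned to 0.27 (limma adjusted p = 0.997). Without attached C2 replicate 1 and attached D4 replicate 3, also added, no list count moved by over 1.5 times. Leaving out 1 RNA gave 1.80 (without early D4 replicate 2) to 2.19 (without early D4 replicate 3) for late minus early, 0.002 to 0.475 for detached minus attached and -0.22 to 0.10 for D4 minus C2. With the replicate block late minus early was 1.94. Whether replicate numbers pair the RNAs is not stated. Same-numbered RNAs had deviations correlated at -0.221 to 0.176 (median -0.011, 40 pairs). RNAs of other numbers had them at -0.236 to 0.236 (median 0.007, 80 pairs), and 6 of 17 RNAs were closest to their own number. These correlations showed no pairing but cannot tell whether a culture or day was shared. Among the list counts given here the replicate block changed 1, leaving 0 TRH system genes (no Cpe) called in D4; over all probe sets it called 113 higher and 318 lower in late minus early, and 120 and 394 in detached minus early.

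Of the TRH system lists, late minus early called 0 under the 75th percentile filter, under which Cpe was not tested, 0 with attached cells alone (0.0560% of all probe sets lower, 0.0362% higher) and 2 with detached cells alone (Cpe and Itpr2). Its count in D4 was 0 with quantile normalization, 0 with no filter and 0 under the 75th percentile filter, and 0 to 1 when 1 RNA was left out. Detached minus attached called 1 with a pseudocount of 1, 1 with the fluidics run as a random block, 3 with array weights and 0 to 2 when 1 RNA was left out. The neuropeptide list had 1 call with detached cells alone (Pomc, -0.75, limma adjusted p = 0.0425) and 0 to 1 when 1 RNA was left out. The naive pluripotency list had 5 calls under the 75th percentile filter, 1 with attached cells alone and 2 to 4 when 1 RNA was left out. The feeder list had 3 calls with attached cells alone and 12 to 16 when 1 RNA was left out; the endoderm list had 4 to 5. Of the 10 genes most like Trh, 4 remained with Spearman's rho, 1 with the 6 group means, 1 with deviations within groups and 4 to 10 when 1 RNA was left out. Klf5, Sox2 and Amn lost their call in 8, 3 and 2 of the 17 fits that left out 1 RNA, and Cpe in 0. The cause was not tested. The fluidics run as a fixed block was not run, because on MOE430A, which reads Trh, early and detached D4 cells shared runs with none of the other 4 groups. On simulated data fewer changes were recovered on MOE430B than on MOE430A.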
